A study of Brassica napus with 9 samples.

Results

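Pods of the CpFatB5 line of rapeseed (Brassica napus) were compared between 8 and 25 DAF, the comparison 51_52, over all 91830 genes of the deposited table. Library 51 came from pods at 8 DAF and library 52 from pods at 25 DAF, so 2 of the 9 libraries of the series entered the comparison and each stage had 1 library. DAF stands for days after flowering, and the sample labels count the same days from fertilization. The plants were homozygous T4 progeny of the cultivar Youngsan carrying CpFatB5, an acyl-ACP thioesterase gene of Cuphea paucipetala, under a Napin promoter, which is active in seeds. The pods were harvested whole in a greenhouse, with wall and developing seeds together, and each library was made from pooled RNA of independent preparations. The other lines used here were the untransformed Youngsan (libraries C1 and C2 at the same stages) and CpFatB4, which carried the related gene CpFatB4 behind the same promoter (libraries 41 and 42). The transcript of the transgene was not analysed here, so the line labels were not checked against it.

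Between these stages the embryo of a rapeseed pod passes from early growth to filling with oil and storage protein. Fatty acids are made in the plastid, where pyruvate dehydrogenase supplies acetyl-CoA, acetyl-CoA carboxylase (ACCase) turns it into malonyl-CoA, and the fatty acid synthase lengthens a chain bound to acyl carrier protein until a thioesterase releases it. The acids are then joined to glycerol in the endoplasmic reticulum as triacylglycerol (TAG), which is stored in oil bodies coated with oleosins.

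A normalized count is a gene's count divided by the size factor of its library, and a gene was called a DEG when its log2 fold change (25 over 8 DAF) reached 1 or -1 and the mean of both libraries was at least 1000 normalized counts. Of the 5817 genes past this minimum, 1082 rose (18.6%) and 527 fell (9.06%), so that 2.05 genes rose for each that fell and 27.7% were DEGs. The median change was 1.81 among the genes that rose and -1.73 among those that fell, against 0.22 over all genes past the minimum. Rises also reached further: 85 genes rose by at least 8 on the log2 scale and 2 fell by as much. The shares hardly differed between the subgenomes, with 541 genes risen and 247 fallen of 2894 in A (18.7% and 8.53%) and 540 risen and 273 fallen of 2909 in C (18.6% and 9.38%). Rises made up 67.2% of the DEGs, but 53.5% when libraries were scaled by total count and 48.9% when highly counted genes (mean 1000 or more) set the size factors, which moved the log2 fold changes of genes with both values above 3 by -0.21 and -0.29. Size factors from libraries 51 and 52 alone gave 72.6% and a shift of 0.10 for these genes.

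Library 51 held 63505361 counts and library 52 held 83475638, within the range of 38677752 to 88259440 of the series. Each library has 2 raw columns, and their log2 values differed with an SD of 0.0534 in 51 and 0.0524 in 52 over genes with at least 1000 normalized counts. They are repeat measurements of 1 library, so no difference between the stages has a replicate check or a p-value. Whether the columns are repeat runs or both ends of read pairs is not stated. Intervals were computed on the mean of the 2 columns, so the ends of a pair would not enter as separate reads. Intervals (exact, 95%) cover counting error only, and values under 3 normalized counts were set to 3 before a fold was taken. In whole pods, fewer cells of a type and less RNA per cell cannot be told apart.

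**Figure D1:**
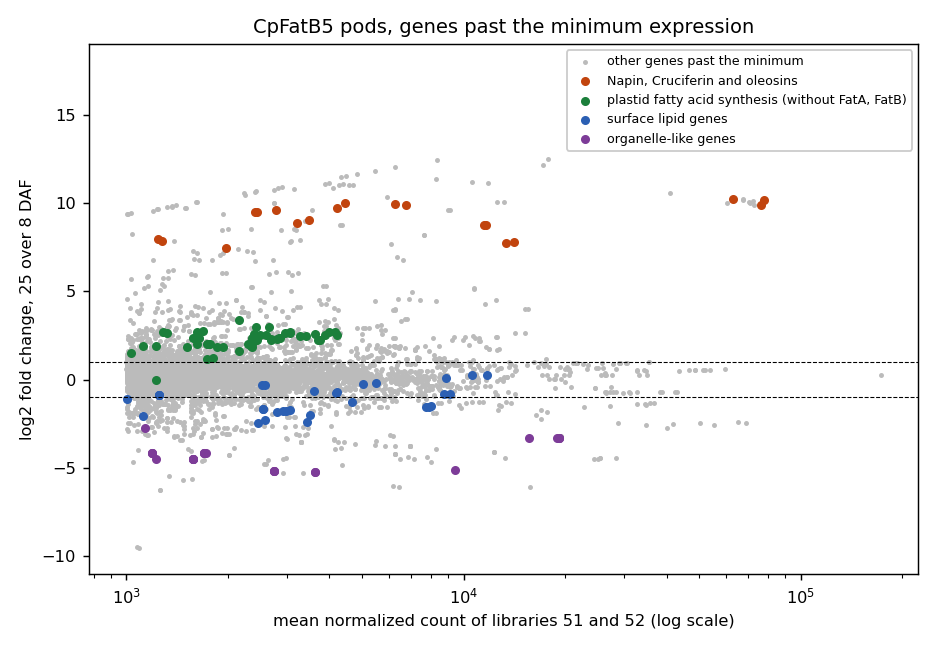
Log2 fold change from 8 to 25 DAF in CpFatB5 pods (vertical axis) against the mean normalized count of libraries 51 and 52 (horizontal axis, log scale), 1 point per gene, for the 5817 genes past the minimum of 1000. Dashed lines mark log2 fold changes of 1 and -1. Napin, Cruciferin and oleosin genes lie above 7, plastid fatty acid synthesis genes mostly between 1 and 4, surface lipid genes below 0.3 and organelle-like genes below -2.

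The largest rises were in a cysteine protease, genes of unknown function, seed coat laccases, small lipid-transfer-like proteins and a cupin. BnaA06g40240D, similar to Arabidopsis senescence-associated gene 12 (AT5G45890), a vacuolar cysteine protease, went from 6.29 normalized counts at 8 DAF to 35571 at 25 DAF, a log2 fold change of 12.47 (interval 11.42 to 13.78). Its homoeolog BnaC07g18750D went from 7.63 to 34423 (12.14). In Youngsan the same genes reached 53134 and 52155 at 25 DAF, with changes of 13.23 and 13.53. BnaA06g03920D and BnaC06g01870D, of a protein family of unknown function (AT4G37900), went from 1.35 each to 16681 and 12550, and their intervals were 11.33 to 16.23 and 10.92 to 15.82. The laccases BnaC02g38340D and BnaAnng08030D resemble AT5G48100, which in Arabidopsis oxidizes flavonoids in the browning seed coat. Both had 2.24 normalized counts at 8 DAF and 8935 and 8670 at 25 DAF, with intervals of 10.43 to 15.33 and 10.38 to 15.28, and their changes were nearly the same in Youngsan (11.41 and 11.36) and in CpFatB4 (11.41 and 11.37). BnaC04g30640D and BnaC04g39100D encode proteins of the lipid-transfer and 2S albumin superfamily. The first went from 1.80 to 9641 (interval 10.54 to 15.44) and the second from 6.28 to 16528, a change of 11.36. BnaA08g15380D, a cupin similar to AT4G36700, went from 8.99 to 21245 (11.21), and its change was 13.09 in Youngsan and 12.88 in CpFatB4. BnaC05g43050D, which has no described function, went from 1.35 to 10900 (interval 10.71 to 15.61), and it differed most between the lines among these genes, at 10.98 in Youngsan and 7.79 in CpFatB4, where it started at 34.4.

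Storage protein genes went from traces to some of the most counted genes of the pod. The 8 listed genes of Napin, the 2S albumin of rapeseed, took 0.00151% of the counts of library 51 and 1.37% of those of library 52. The 4 listed genes of Cruciferin, the 12S globulin, took 0.00125% and 0.306%. All 6 listed Napin genes past the minimum and all 4 listed Cruciferin genes rose, and the remaining 2 listed Napin genes stayed under the minimum. A gene near 0 at 8 DAF passes the minimum only through its value at 25 DAF, so that such a gene could only be counted as risen. The study picked part of its storage protein genes from these samples, and their counts are no independent evidence of direction. BnaA01g17200D, a Napin gene, went from 103 to 125713 normalized counts, a log2 fold change of 10.25. The copies on C01 behaved alike, with BnaC01g19320D going from 134 to 155712 (10.18) and BnaC01g43250D from 159 to 151978 (9.90). Numbered next to BnaC01g19320D are BnaC01g19330D (136 to 153160) and BnaC01g19300D (151 to 145342), which carry no description in the tables used, and all 4 were among the 5 genes with the largest share of the counts at 25 DAF. Further genes outside the list had like levels and changes, such as BnaA01g16180D (mean of both libraries 70801.9, change 10.02) and BnaC03g08840D (67537.5, 10.20). They were named after their values were seen, and the share of the list leaves all such genes out. BnaA08g14120D and BnaC08g12450D, similar to seed storage albumin 3, had no read at 8 DAF and 357 and 366 normalized counts at 25 DAF, at least 6.89 and 6.93 higher on the log2 scale. How reads matching several near-identical copies were counted is not stated, so values of single copies are uncertain. Each raw column of both libraries alone held more counts than its library had trimmed reads, so reads were counted at multiple genes. Near-identical copies can thus repeat the same reads. Numbers of DEGs, list counts and shares of counts include such repeats to an unknown extent.

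All 4 Cruciferin genes started higher and ended lower in CpFatB5 than in the other lines. BnaA01g08350D (cruciferin 3) went from 128 to 28120 in CpFatB5, a log2 fold change of 7.78. The same gene started at 30.1 and ended at 101949 in Youngsan (11.73), and in CpFatB4 it started at 14.2 and ended at 296814 (14.35). BnaA10g02240D (cruciferin 2) went from 54.4 to 23257 (8.74) in CpFatB5, while Youngsan had 19.1 and 80968 (12.05) and CpFatB4 had 13.1 and 131537 (13.30). Summed over the 4 genes, library 51 was 3.62 times as high as C1 and 6.60 times as high as 41, whereas library 52 was 0.281 of C2 and 0.121 of 42. The 5 cupin genes similar to AT5G44120, an Arabidopsis 12S globulin, had the same order at both stages, with BnaA08g13680D going from 58.0 to 12106 in CpFatB5, while Youngsan had 15.8 and 48658 and CpFatB4 had 7.48 and 147641. The listed Napin genes differed less than Cruciferin. Their sum in 51 was 1.02 times that in C1 and 1.82 times that in 41. In 52 it was 0.661 of that in C2 and 0.598 of that in 42. These differences between lines rest on 1 library each and were not tested.

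**Figure D2:**
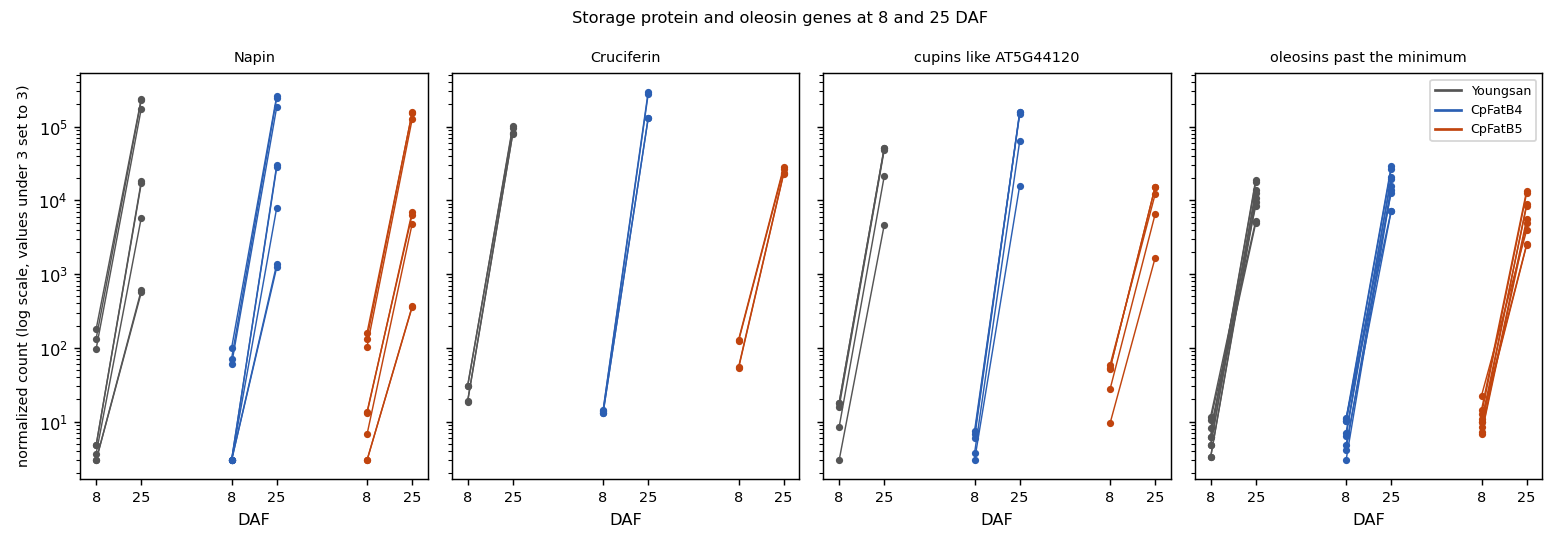
Normalized counts (log scale, values under 3 set to 3) at 8 and 25 DAF of Napin, Cruciferin, cupin genes similar to AT5G44120 and the oleosins past the minimum, 1 line per gene, in Youngsan, CpFatB4 and CpFatB5. Every gene shown was higher at 25 DAF, and the Cruciferin genes and the cupins had the flattest lines in CpFatB5.

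Oil body proteins divided by family. Of the 27 oleosin genes, 9 passed the minimum and rose, between 7.45 and 10.02 on the log2 scale. In CpFatB5, 18.6% of all genes past the minimum rose. The 9 oleosins were near 0 at 8 DAF and passed the minimum only through 25 DAF, so they could only be counted as risen. Whatever their level, 25 of the 27 were higher at 25 DAF by at least 1, against 13638 of all 91830 genes. The 13 genes of the seed types took 0.000384% of the counts of library 51 and 0.208% of those of library 52. The largest rise was BnaC01g17050D, similar to oleosin AT4G25140, from 8.54 to 8877 (10.02), and the smallest was BnaA09g02110D, similar to AT3G27660, from 22.5 to 3921 (7.45). In Youngsan, where 19.2% of all genes past the minimum rose, and in CpFatB4, where 21.2% did, 12 oleosins rose each, and 24 of the 27 had their smallest change in CpFatB5. For BnaC01g17050D these changes were 11.49 in Youngsan and 11.67 in CpFatB4. Caleosins are calcium-binding proteins of the oil body. None of the 6 past the minimum was a DEG, and all 6 resemble AT2G33380 and had changes between -0.57 and -0.14, for example BnaC04g11110D, from 1503 to 1013. The seed type AT4G26740 was under the minimum, where BnaA01g15860D went from 5.39 to 955 in CpFatB5 and from 4.04 to 2187 in Youngsan. It was named after its value was seen. Steroleosins were scarce, since no gene of 13 passed the minimum and their summed normalized count was 23.8 at 8 DAF and 304 at 25 DAF. Their median change was 1.81, against 4.52 in Youngsan and 4.82 in CpFatB4. Oleosins of the pollen surface, which the tapetum of the anther makes, summed to 24.7 and 303 normalized counts over 21 genes, of which none passed the minimum and 7 were under 3 at both stages. The corresponding share of counts was 8.82e-05% at 8 DAF and 0.000920% at 25 DAF, and the part of floral remains in other results was not tested. Markers of green tissue could not be drawn from the annotations used.

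Plastid fatty acid synthesis genes past the minimum mostly rose, while several steps had no gene past it. Of the 130 genes in the list, 56 passed the minimum, 50 of these rose (89.3%, against 18.6% of all genes) and none fell (against 9.06%). The median change was 1.56 over all 130 genes, against 0.00 over all genes of the table. Leaving out the thioesterases, 50 of 51 genes past the minimum rose. The list took 0.232% of the counts at 8 DAF and 0.756% at 25 DAF. In Youngsan 57 of 63 genes of the list past the minimum rose, against 19.2% of all genes there. In CpFatB4 52 of 58 did, against 21.2%.

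The first steps rose together. All 14 plastid pyruvate dehydrogenase genes past the minimum rose, from 1.19 in BnaA01g17630D (E3 subunit, 1060 to 2415) to 2.77 in BnaC06g08280D (E2 subunit, 431 to 2936). All 8 ACCase genes past the minimum rose, 4 for the carboxyltransferase alpha subunit and 4 for biotin carboxylase, as in BnaA03g17570D (alpha, 702 to 4115, 2.55) and BnaA06g06030D (biotin carboxylase, 912 to 4770, 2.39). The biotin carboxyl carrier proteins were under the minimum and differed by type. Among those similar to AT5G15530, BnaA10g18680D went from 34.6 to 877 (4.66) and BnaC03g07000D from 68.3 to 1256. Among those similar to AT5G16390, BnaA03g06000D went from 264 to 355 (0.43) and BnaAnng22560D from 336 to 699 (1.06). The carrier proteins and BnaA06g06030D were named after their values were seen. The carboxyltransferase beta subunit, which in plants is encoded in the plastid genome, ran against the nuclear subunits. Its 4 gene copies, BnaA10g13960D among them, were under the minimum in all lines and had identical counts, so they give a single measurement. They went from 75.5 to 10.3 in CpFatB5 (-2.88), while Youngsan had 17.6 and 97.9 (2.47) and CpFatB4 had 34.0 and 47.9 (0.49).

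Within the synthase cycle, the ketoacyl-ACP synthases (KAS), which add 2 carbons per round, all had positive changes. All 6 KAS I genes rose by 2.45 to 2.72, BnaC07g19000D from 1052 to 6915 (2.72) and BnaA09g17930D from 1009 to 5525 (2.45). KAS II, which takes 16-carbon chains to 18 carbons, had 4 genes past the minimum that rose, such as BnaC06g22680D from 689 to 2855 (2.05). KAS III, which starts the chain, stayed under the minimum, with BnaA09g12890D going from 380 to 852 (1.17) in CpFatB5 and from 265 to 1098 (2.05) in Youngsan. Ketoacyl-ACP reductase genes similar to AT1G24360 rose in 6 of 6 cases, with BnaC07g11210D going from 638 to 2610 (2.03), whereas BnaC08g26120D, similar to AT3G55310, was level at 1219 and 1229 (0.01). Hydroxyacyl-ACP dehydrase split by copy type, with BnaA03g02830D (like AT5G10160) rising from 544 to 1524 (1.49) and BnaA04g12710D (like AT2G22230) going from 113 to 14.2 (-2.99), under the minimum. All 4 enoyl-ACP reductase genes rose, among them BnaC03g45040D from 771 to 3951 (2.36). Acyl carrier proteins were all under the minimum and split as well. The 6 genes similar to AT4G25050, the main leaf form of Arabidopsis, were lower at 25 DAF, as in BnaC01g16980D from 560 to 140 and BnaC08g11960D from 157 to 44.6 (-1.81). BnaA09g03610D, similar to AT5G27200, went from 22.9 to 483 (4.40), and BnaAnng23710D, similar to AT1G54630, from 438 to 968 (1.15).

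Stearoyl-ACP desaturase (SAD), which places the first double bond and so directs stearic acid to oleic acid, had the largest rise of the pathway. All 7 SAD genes past the minimum rose, led by BnaA01g32860D (like AT3G02630, 377 to 3935, 3.38) and with BnaC04g03030D last (like AT2G43710, 755 to 4448, 2.56). Under the minimum, BnaA05g33500D and BnaC05g48250D went from 1.35 each to 1466 and 1376, with intervals of 7.82 to 12.72 and 7.73 to 12.63. They were named after their values were seen. The endogenous thioesterases did not follow. No FatB gene, of the type that releases saturated acids and to which CpFatB5 belongs, was a DEG, and their 7 genes had changes of -0.69 to -0.58, for example BnaA06g04900D from 1667 to 1038 (-0.68). Of the FatA genes, which release oleic acid, none passed the minimum. BnaA04g07120D and BnaCnng41490D (like AT4G13050) went from 252 to 740 and from 245 to 721, both 1.56, and BnaA03g37700D (like AT3G25110) from 240 to 243 (0.02).

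**Figure D3:**
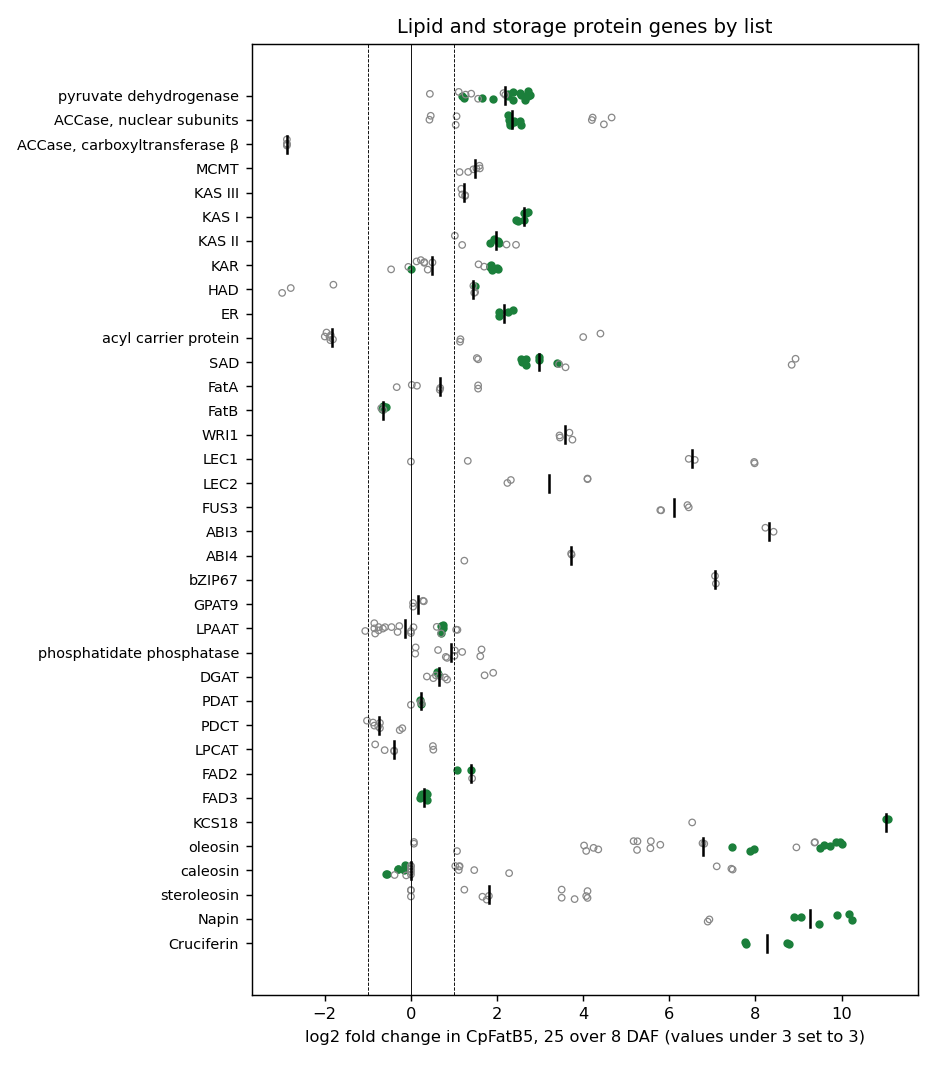
Log2 fold change from 8 to 25 DAF in CpFatB5 for each gene of the lipid and storage protein lists, with filled points for genes past the minimum of 1000, open points for the others and a bar at the median of each list. Pyruvate dehydrogenase, nuclear ACCase, KAS I, enoyl-ACP reductase and SAD lie right of 1 for all genes past the minimum, the carboxyltransferase beta subunit lies at -2.88, and FatB and FAD3 lie between -1 and 1.

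Transcription factors of embryo development, seed filling and seed coat pigment did not pass the minimum in any of 30 genes. Whatever their level, 29 of the 30 were higher at 25 DAF by at least 1, against 13638 of all 91830 genes. The median was 4.10 over the 30, against 0.00 over all genes. Of the 30, 19 were under 3 normalized counts at 8 DAF and above 3 at 25 DAF. Those with no read at 8 DAF give lower bounds. WRI1, an activator of glycolysis and fatty acid synthesis genes, went from 149 to 1619 in BnaA09g34250D (3.45) and from 128 to 1632 in BnaA07g16350D (3.68), and 3 of its 4 genes passed the minimum and were called risen with size factors from libraries 51 and 52 alone. LEC1 had no read at 8 DAF and 751 normalized counts at 25 DAF in BnaA07g10770D (at least 7.97 higher), and its copy BnaA08g21060D was under 3 at both stages. ABI3, which with LEC1 and FUS3 controls maturation, had no read at 8 DAF and 1026 normalized counts in BnaA03g37510D (at least 8.42 higher) and 903 in BnaC03g44820D (at least 8.23 higher). FUS3 went from 1.35 to 262 in BnaA02g28280D (interval 5.32 to 10.24), and bZIP67 from 1.34 to 405 in BnaC03g54810D (interval 5.96 to 10.87). LEC2 reached no more than 51.3, in BnaA07g08500D, from 1.80 (interval 2.92 to 7.91). Among regulators of seed coat pigment, TT2 went from 5.39 to 148 in BnaA08g29930D (4.78) and TT8 from 65.6 to 150 in BnaA09g22810D (1.19).

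Of 74 genes of TAG assembly, 16 passed the minimum, 2 rose (12.5%, against 18.6% of all genes) and none fell (against 9.06%). The median was 0.25 over all 74 and 0.48 over the 16, against 0.22 over all genes past the minimum. In Youngsan 4 of 18 past the minimum rose, against 19.2% of all genes there, and in CpFatB4 5 of 16, against 21.2%. Both rises in CpFatB5 were FAD2, the desaturase that makes linoleic acid on phospholipid: BnaA05g26900D went from 3416 to 8943 (1.39) and BnaC05g40970D from 5538 to 11546 (1.06). Only the first was past 1 when libraries were scaled by total count. FAD3, which adds the next double bond, had 6 genes past the minimum and no DEG, as in BnaA04g17150D from 1628 to 2102 (0.37) and BnaA03g13590D from 1404 to 1639 (0.22). BnaA04g17150D had 1390 and 2973 (1.10) in Youngsan and 1361 and 2995 (1.14) in CpFatB4. All 6 FAD3 genes had their smallest change in CpFatB5. For the acyltransferases, GPAT9, which starts the route, had a median of 0.16 over 4 genes, which was -0.04 under total-count scaling and -0.13 when highly counted genes set the size factors. The LPAAT genes past the minimum, all similar to AT3G57650, had changes of 0.69 to 0.74, such as BnaA09g36950D from 788 to 1316. DGAT1 (AT2G19450), which adds the last acyl chain, was under the minimum, with BnaA07g36000D going from 426 to 766 (0.84) in CpFatB5, while Youngsan had 274 and 958 (1.80) and CpFatB4 had 318 and 1010 (1.67). The soluble type AT1G48300 had the reverse order, with BnaC08g46660D at 0.64 in CpFatB5, 0.07 in Youngsan and 0.21 in CpFatB4. PDAT, which takes the last acyl chain from phospholipid, had a median of 0.23, which was -0.06 when highly counted genes set the size factors, and BnaA10g29880D went from 961 to 1132 (0.24). PDCT, the exchanger between phosphatidylcholine and diacylglycerol, had a median of -0.74 over 8 genes under the minimum, and LPCAT, which reacylates lysophosphatidylcholine, had one of -0.39 over 6.

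The elongase of seed oil rose. Its 2 genes past the minimum were near 0 at 8 DAF and passed only through 25 DAF, so they could only be counted as risen. KCS18 (FAE1), which makes eicosenoic and erucic acid in the embryo, went from 4.04 to 8757 in BnaA08g11130D, a log2 fold change of 11.08 (interval 9.89 to 13.13), and from 4.04 to 8530 in BnaC03g65980D (11.04), while BnaC07g45070D had no read at 8 DAF and 278 normalized counts at 25 DAF, at least 6.53 higher. The change of BnaA08g11130D was 12.08 in Youngsan and 11.80 in CpFatB4. Of the 67 other ketoacyl-CoA synthase genes, 7 passed the minimum, 2 fell (28.6%, against 9.06% of all genes) and none rose (against 18.6%). Neither of the 2 was past -1 with size factors from libraries 51 and 52 alone. The 2 were BnaC07g05570D (1560 to 739, -1.08) and BnaA07g03590D (1524 to 726, -1.07), similar to KCS9 (AT2G16280), which makes 24-carbon precursors of surface and membrane lipids. BnaA04g15380D, similar to FIDDLEHEAD (AT2G26250), which is needed to keep organ surfaces separate, went from 3152 to 2217 (-0.51). Whatever their level, 4 of the 67 other genes were higher at 25 DAF by at least 1 and 34 lower by at least 1. Over all 91830 genes these counts were 13638 and 14146.

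Among surface lipid genes past the minimum, those of cuticular wax synthesis all fell, and of the lipid transfer proteins some did. Of 296 surface lipid genes, 31 passed the minimum, 16 fell (51.6%, against 9.06% of all genes) and none rose (against 18.6%). In Youngsan 22 fell, where 8.14% of all genes past the minimum did, and in CpFatB4 23, where 7.41% did. Whatever their level, 53 of the 296 were higher at 25 DAF by at least 1 and 88 lower by at least 1. Over all 91830 genes these counts were 13638 and 14146. Among lipid transfer protein genes, 1 was called risen under total-count scaling and 4 with size factors from libraries 51 and 52 alone. All 6 CER and wax synthase genes past the minimum fell. BnaCnng19590D, similar to CER3, which works with CER1 in making wax alkanes, went from 4141 to 772 (-2.42), and BnaCnng09200D, similar to CER1, from 5765 to 1087 (-2.41). All 3 fatty acyl-CoA reductase genes past the minimum fell. They resemble CER4 (AT4G33790), which makes wax alcohols, and BnaA01g03200D went from 3865 to 1207 (-1.68). Of 22 lipid transfer protein genes past the minimum, 7 fell, among them all 5 similar to AT5G59320, such as BnaC03g12050D from 4367 to 1243 (-1.81). The lowest was BnaC04g06760D (5604 to 1417, -1.98), similar to AT2G38540, of which the close relative BnaC04g45800D went from 9580 to 11673 (0.29). In Youngsan BnaC04g45800D went from 10321 to 7350 (-0.49), and 14 of 22 lipid transfer protein genes past the minimum fell there and 16 of 23 in CpFatB4.

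The other lipid lists differed in how many of their genes were DEGs. Membrane phospholipid synthesis had 8 risen genes of 26 past the minimum (30.8%, against 18.6% of all genes), 2 of them the FAD2 genes, and a median of 0.10 over 231 genes, which was -0.04 when highly counted genes set the size factors. Phosphoethanolamine N-methyltransferase, which makes the choline headgroup, rose in BnaC06g23520D from 218 to 3364 (3.95) and in BnaA07g22620D from 228 to 3291 (3.85). Inositol phosphate synthase of type AT4G39800, the first step to inositol and phytate, rose in BnaA01g34710D from 688 to 2967 (2.11), while BnaC08g35240D of type AT2G22240 went from 3114 to 2332 (-0.42). Triacylglycerol and fatty acid degradation had 1 risen gene of 32 past the minimum, BnaA02g30470D (a ketoacyl-CoA thiolase of beta-oxidation, 1731 to 3673, 1.09). In Youngsan 10 of 31 genes of this list rose, against 19.2% of all genes there, and in CpFatB4 15 of 31, against 21.2%. The count in CpFatB5 depended on the scaling, at 0 with total-count scaling and 11 with size factors from libraries 51 and 52 alone, so no contrast between the lines can be read from it. Among plastid desaturases, 2 of 7 past the minimum fell (28.6%, against 9.06% of all genes), both similar to FAD7, which makes trienoic acids of chloroplast membranes: BnaC05g42010D from 1625 to 552 (-1.56) and BnaA05g27840D from 1587 to 557 (-1.51). No gene of 26 for galactolipid and sulfolipid synthesis passed the minimum, and of 116 for sphingolipid synthesis 2 passed and neither was a DEG.

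The largest falls were in a receptor kinase pair and in genes without a description. BnaA03g32070D and BnaC03g37350D, similar to receptor kinase 3 (AT4G21380), had 2175 and 2150 normalized counts at 8 DAF and no read at 25 DAF, so that their log2 fold changes of -9.50 and -9.49 are bounds and the falls were at least as large. In Youngsan they went from 1067 and 1045 to no read. BnaA09g15440D and BnaA09g15430D, neighbours with nearly equal counts, both went from 2484 to 32.4 (-6.26). BnaA05g14890D, which took 0.109% of the counts at 8 DAF, went from 31057 to 463 (-6.07), BnaC06g05340D from 12688 to 190 (-6.06) and BnaA06g01540D from 12140 to 188 (-6.01). The last 3 had larger falls in Youngsan (-6.91, -6.86 and -6.85). BnaA01g28900D went from 2605 to 60.4 (-5.43) in CpFatB5 and from 1719 to 200 (-3.10) in CpFatB4. Among the 5 genes with the largest share of the counts at 8 DAF, 4 fell and had no description. BnaC08g46150D, which took 0.409% of the counts of 51, went from 116609 to 21414 (-2.45) in CpFatB5 and from 67577 to 17940 (-1.91) in CpFatB4, whereas in Youngsan it went from 20479 to 35390 (0.79). The remaining one, BnaC07g47500D, took the largest share at both stages (0.553% and 0.571%) and changed by 0.26, but its 2 raw columns were further apart than those of most genes, with 153303 and 197591 counts in library 51.

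Genes resembling the plastid and mitochondrial genomes fell in CpFatB5 and not in Youngsan. The tables used pair 32 genes with an Arabidopsis plastid gene and 17 with a mitochondrial one, and these 49 organelle-like genes had 33 distinct count profiles because copies shared identical counts. The study picked most of them from these samples, and they were grouped after their values were seen, so the counts are a description. Of the 24 past the minimum all fell, 13 with identical genes counted once, against 9.06% of all genes. A gene as low at 25 DAF as BnaC05g32150D (133) passes the minimum only through 8 DAF and could only be counted as fallen. Whatever their level, all 49 were lower at 25 DAF, with log2 fold changes of -5.23 to -1.79. Of all 91830 genes, 14146 were lower by at least 1. Of the plastid-like genes, 9 of 11 past the minimum rose in Youngsan, against 19.2% of all genes there. In CpFatB4 14 of 18 fell, against 7.41%. The minimum admits different genes in each line, so these counts are not like for like. Whatever their level, all 32 were higher at 25 DAF in Youngsan, and in CpFatB4 28 were lower and 4 higher. The share of the counts taken by all 49 genes went from 0.908% (interval 0.905 to 0.912) to 0.0641% (0.0633 to 0.0648) in CpFatB5 and from 0.494% to 0.126% in CpFatB4, but from 0.135% to 0.269% in Youngsan. BnaA01g34300D, similar to the large subunit of rubisco (ATCG00490), which fixes carbon dioxide, went from 7075 to 189 (-5.23) in CpFatB5 and from 2663 to 686 (-1.96) in CpFatB4, whereas Youngsan had 925 and 1349 (0.54). BnaC05g32150D, similar to a core protein of photosystem I (ATCG00350), went from 3017 to 133 (-4.51) in CpFatB5 and from 1318 to 792 (-0.73) in CpFatB4, whereas Youngsan had 659 and 1482 (1.17). A further 3 genes had the same counts. BnaC09g16550D, similar to ribosomal protein S12 (ATCG00065), went from 34833 to 3600 (-3.27), and BnaCnng12640D, similar to ATMG00030, from 18276 to 522 (-5.13).

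Both ends of the change differed between the lines for these genes. Summed over the 32 plastid-like genes, library 51 was 6.80 times as high as C1 and 1.88 times as high as 41, and library 52 was 0.221 of C2 and 0.458 of 42. Every plastid-like gene was higher in 51 than in C1 and lower in 52 than in C2. The 17 mitochondrion-like genes had the same order, with ratios of 8.31 and 2.50 at 8 DAF and 0.178 and 0.299 at 25 DAF. With 1 library for each line and stage, line and library cannot be told apart. Without the 49 genes, 503 of the 527 fallen genes remained, a count added after seeing the data. The 503 still hold genes without a description that had the same order between lines. BnaC09g16540D, numbered next to BnaC09g16550D, went from 6063 to 526 in CpFatB5, while Youngsan had 1064 and 1826 and CpFatB4 had 2759 and 902. It was named after its value was seen, and whether such genes are organelle-like was not tested.

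**Figure D4:**
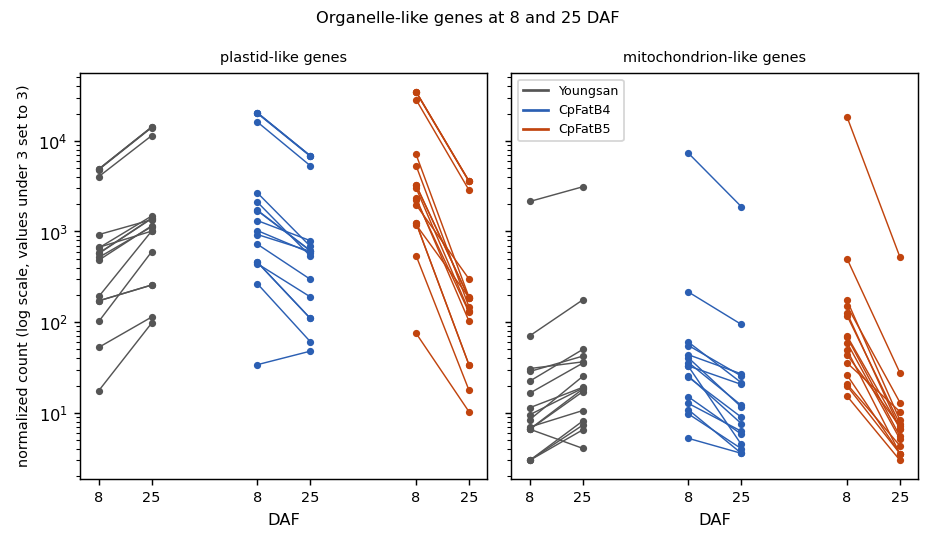
Normalized counts (log scale, values under 3 set to 3) at 8 and 25 DAF of the 32 plastid-like and 17 mitochondrion-like genes, 1 line per distinct count profile, in Youngsan, CpFatB4 and CpFatB5. All lines slope down in CpFatB5 and all plastid-like lines slope up in Youngsan.

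Across the 5874 genes with a mean of at least 1000 over the 6 libraries at 8 and 25 DAF, the change in CpFatB5 followed that of the other lines. Pearson's r was 0.94 with Youngsan and 0.96 with CpFatB4 (Spearman's rho 0.84 and 0.89), and 0.96 (0.86) between Youngsan and CpFatB4. These are descriptions across genes, which are not independent replicates, and the 3 changes share no library. Of the 1082 genes that rose, 817 also rose in Youngsan and 864 in CpFatB4. Of the 527 that fell, 325 also fell in Youngsan and 358 in CpFatB4, and 10 rose in Youngsan. In Youngsan 1153 of 5997 genes rose (19.2%) and 488 fell (8.14%), and in CpFatB4 1246 of 5886 rose (21.2%) and 436 fell (7.41%).

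A gene was counted as differing in CpFatB5 when its log2 fold change lay at least 1 above, or at least 1 below, those of both other lines. The change was smaller or more negative in CpFatB5 for 89 genes (1.52%) and larger for 15 (0.255%). With Youngsan as the odd line, 26 genes were lower (0.443%) and 115 higher (1.96%), and with CpFatB4 18 were lower (0.306%) and 60 higher (1.02%). The 89 genes included 9 oleosins, 2 caleosins, 3 Napin and all 4 Cruciferin genes, all 5 cupins similar to AT5G44120 and 19 organelle-like genes. Of the 89, 24 rose in CpFatB5. The rule that picked these genes requires a larger rise in both other lines, so their shared direction is no separate result. A further 54 fell, and 50 were lower at 25 DAF in CpFatB5 and in CpFatB4 but higher in Youngsan. Of these 50, 31 had no description, 21 of which are numbered on chromosome C09, and 35 of the 89 shared identical counts with another gene.

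The 15 genes with a larger or less negative change included 2 lipoxygenases and 2 lipid transfer proteins. BnaC06g27050D, without a description, rose from 298 to 2355 (2.98) in CpFatB5, while Youngsan had 507 and 1361 (1.42) and CpFatB4 had 408 and 1085 (1.41). The other 4 of the 5 largest differences were smaller falls, as in BnaA07g24870D, which went from 1940 to 716 (-1.44) in CpFatB5, while Youngsan had 2707 and 259 (-3.38) and CpFatB4 had 2618 and 302 (-3.11). Under total-count scaling, 49 genes had a larger change in CpFatB5 instead of 15. None of these differences between lines could be tested.

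**Figure D5:**
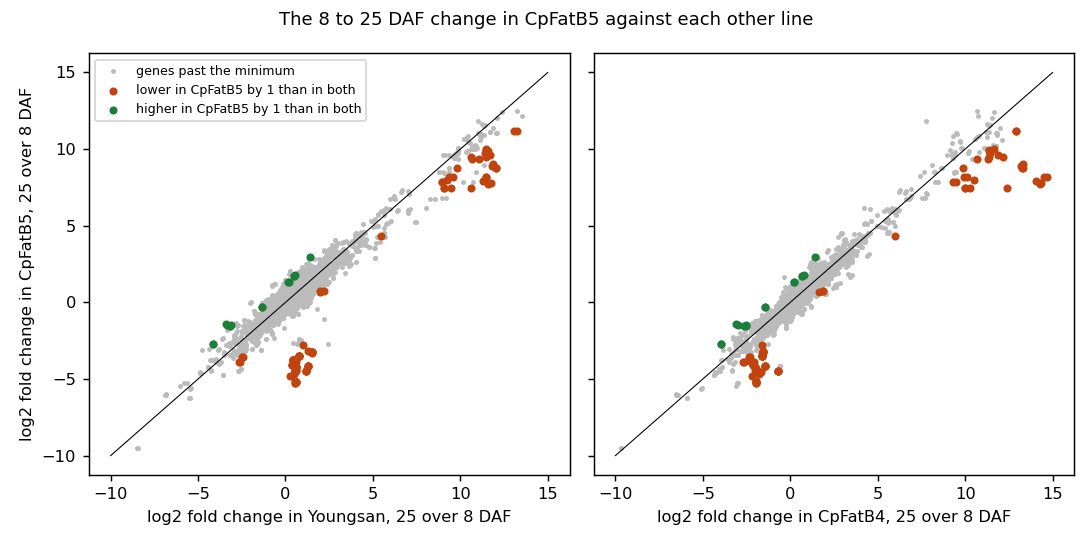
Log2 fold change from 8 to 25 DAF in CpFatB5 (vertical axis) against that in Youngsan and in CpFatB4 (horizontal axes), 1 point per gene past the minimum, with the diagonal of equal change. The 89 genes lower in CpFatB5 than in both other lines lie in an upper cloud of seed genes and a lower cloud of genes that fell in CpFatB5, and the 15 higher genes lie close above the diagonal.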

How the data were processed

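The authors trimmed reads with SolexaQA, mapped them to the Genoscope coding sequences of B. napus with Bowtie2 (2.1.0 in the submitters' processing notes) and counted them per gene. The counting tool and the treatment of reads matching several genes are not given in the sources used here. The count totals exceed the trimmed reads in both libraries compared, so reads were counted at multiple genes. The deposited table holds 18 raw columns of whole-number counts, 2 per library and with a lowest value of 1, taken as 1 added to each count and left in place. Its 13 columns of DESeq-normalized values, rounded by the authors and treated as a score, were used only as a check: median-of-ratios size factors computed from all 18 raw columns gave values within 0.500 of them.

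The 2 normalized columns of a library were averaged. The DEG rule takes the fold and mean-count thresholds as the study's methods word them, without its test, since each stage has 1 library. How the mean was taken is not spelled out there, so this rule may not be the study's own. The raw columns carry commas and their unit was recorded as other, which changed no step of the design. Lists came from gene names and Arabidopsis matches in the supplementary tables, since lists from RefSeq descriptions could not be made. The members and lists were chosen with earlier results of these data known. Genes named are the 10 largest rises and falls, the 3 highest and lowest members past the minimum of each list, any member of a family of 10 or fewer, the 5 largest differences between CpFatB5 and the other lines in each direction, and the 5 largest shares per library. Others are said to be chosen after their values were seen. The code of the DEG rule was run on simulated data with counting error only. The planted changes exceeded the fold threshold in genes well above the minimum. That run cannot tell how calls near the thresholds fare or how libraries vary. Alternatives changed the scaling, minimum, fold threshold, columns, offset, floor and identical genes. Values were computed in Python 3.11.15 with pandas 2.3.3, numpy 2.4.6 and, for intervals, scipy 1.17.1, and drawn in matplotlib 3.10.9.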

Additional observations from a re-analysis of the deposited data

Results flagged for a closer look

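The plastid-like genes were lower at 25 than at 8 DAF in CpFatB5, with a median log2 fold change of -4.13, while Youngsan had a median of 1.26 and every member was higher at the later stage there. Among them, the copies of the carboxyltransferase beta subunit, under the minimum and with identical counts, had a change of -2.88 in CpFatB5 against 2.47 in Youngsan. Each line and stage is 1 library, and these differences were not tested.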

How the results depend on the processing

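Of 107 recomputed counts over 10 results, 79 stayed within 1.5 times the reported count and 28 did not. A minimum of 200 normalized counts gave 4390 risen and 3058 fallen genes, no minimum gave 13638 and 14146, a minimum of 1000 in the higher library gave 1692 and 884, and a log2 threshold of 2 gave 457 and 217. Scaling by total count gave 806 fallen genes. In plastid fatty acid synthesis 87 genes rose with the minimum of 200 and 93 with none. In TAG assembly 1 rose with total-count scaling, 1 when genes with a mean of 1000 or more set the size factors, 6 with the minimum of 200, 12 with none and 0 with a threshold of 2. Of the oleosins 25 rose with no minimum and 14 with a minimum on the mean of 9 libraries. Of the surface lipid genes 45 fell with the minimum of 200, 88 with none and 4 with a threshold of 2. Of the organelle-like genes 49 fell with no minimum and 13 with identical genes counted once. Genes with a smaller change in CpFatB5 than in both other lines numbered 201 with the minimum of 200 and 40 with a difference of 2, and those with a larger change 49 with total-count scaling, 276 with the minimum of 200 and 0 with a difference of 2. Counting identical genes once left 64 and 15 of them, an alternative chosen after seeing the data. Fewer or more genes enter under another minimum by construction, and the cause of the other moves was not tested. No paired analysis was possible because each line and stage has 1 sample. The limits are the lack of replicates, pooled RNA, near-identical gene copies that can repeat the same reads, and whole pods. Counting identical genes once merged only genes with exactly equal counts. At 8 DAF, 3 counts correspond to 4.72e-06% of the library, and changes of genes near that level are known only as bounds.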

Other observations

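Lipoxygenase genes similar to AT3G45140, a plastid enzyme at the start of jasmonate synthesis in Arabidopsis, were grouped after their values were seen, from a table the study made on these samples. In CpFatB5, 8 of 10 fell, with a median of -1.43, while all 10 fell in Youngsan (median -2.84) and in CpFatB4 (-2.14). Of all genes past the minimum, 9.06% fell in CpFatB5, 8.14% in Youngsan and 7.41% in CpFatB4. BnaA07g24860D went from 7685 to 2693 in CpFatB5, while Youngsan had 13155 and 1465 and CpFatB4 had 10854 and 1893, so it was lowest in CpFatB5 at 8 DAF and highest there at 25 DAF. All 10 genes had their least negative change in CpFatB5.

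Sucrose synthase genes similar to AT5G49190 split sucrose for use in the seed. BnaA06g29670D went from 23.8 to 25112 (10.04) and BnaC07g27090D from 24.3 to 26359 (10.09), and both were named after their values were seen. Of 12 late embryogenesis genes from a table of the study, none passed the minimum in CpFatB5, and their median change was -0.02. BnaA04g23790D, also named after its value was seen, had 2.76 normalized counts at 25 DAF in CpFatB5 and 22.4 in CpFatB4.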
